A study of Danio rerio with 15 samples.

Results

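The 100 genes with the highest RNA abundance outside a set of mitochondrial gene IDs, in zebrafish embryos at 50% epiboly, were described across 5 genotypes. The genes were chosen by their mean CPM (the count of a gene divided by all counts of the library, times 1000000) over all 15 samples, after 13 mitochondrial gene IDs had been left out, from 32520 genes in the table. They are the 100 genes at the top of that order, 0.308% of the IDs, and their abundance is therefore a description and not a finding. The choice used no difference between groups. Of the 100, 99 could be paired with a gene name. What the remaining gene, ENSDARG00000080337, encodes was not determined, nor whether it is a nuclear gene. CPM is not corrected for gene length, so the order among genes is an order of reads and not of molecules.

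Each sample was RNA from a pool of 10 whole embryos, and each of the 5 groups had 3 samples. TL and Tu are unmutated laboratory strains. The axin2-/- fish carried a mutation made with sgRNA and Cas9 in the TL strain, the nkd1-/- fish carried a mutation made the same way in the Tu strain, and the axin2-/-;nkd1-/- double mutant came from crossing these lines, so its background is a mixture of TL and Tu. The samples of a group shared their parents and differed in the day of collection. Their spread is therefore that between collections from the same family, and the effects of genotype and of family cannot be told apart. The double mutant was compared with the mean of TL and Tu and with each single mutant. A library held between 44098543 and 68135442 counts.

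Axin2 is a scaffold of the complex that marks β-catenin for destruction, and Nkd1 binds Dishevelled; both are induced by Wnt signalling and dampen it. At 50% epiboly the blastoderm has spread over the upper part of the yolk and gastrulation begins, with an outer epithelium (the enveloping layer), the deep cells that form the embryo, and a yolk syncytial layer. The RNA of the embryo is at this stage a mixture of maternal transcripts, laid down in the egg, and of transcripts from the zygotic genome. The most abundant transcripts of rapidly dividing embryonic cells are known to encode the machinery of translation, RNA processing and chromatin.

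The counts of the targeted genes did not check the genotype labels. AXIN2 (ENSDARG00000100149) was at 69.3 ± 5.80 CPM in TL (SD, n = 3) and at 95.0 ± 8.39 CPM in axin2-/-, and NKD1 (ENSDARG00000020053) was at 12.3 ± 0.85 CPM in Tu and at 21.4 ± 2.77 CPM in nkd1-/-. Neither was lower in its own mutant, and both were higher by edgeR's quasi-likelihood test. AXIN2 was 0.48 ± 0.12 higher on the log2 scale (SE; adjusted p = 0.00809) and NKD1 0.81 ± 0.20 higher (adjusted p = 0.00517). AXIN2 was also 0.46 ± 0.12 higher in nkd1-/- than in Tu (adjusted p = 0.00826). In the double mutant AXIN2 was at 104 ± 4.96 CPM, 0.70 ± 0.10 above the mean of the strains (adjusted p = 5.06e-05). NKD1 was at 23.0 ± 2.55 CPM there, 0.78 ± 0.16 above it (adjusted p = 0.00135). The size and type of the lesions were not examined, and whether they change a gene's count was not tested.

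The 100 genes took between 20.6 and 24.6% of all counts in each library. Their share was 20.6, 22.7 and 22.3% in TL, with a mean of 21.9 ± 1.10% (SD, n = 3). It was 22.4, 23.5 and 22.4% in axin2-/- (22.8 ± 0.66%) and 22.0, 22.1 and 23.3% in Tu (22.5 ± 0.73%). In nkd1-/- it was 22.6, 24.6 and 23.1% (23.4 ± 1.04%), and in the double mutant 23.6, 24.4 and 24.4% (24.1 ± 0.48%). All 3 double mutant samples lay above every TL, axin2-/- and Tu sample, and they overlapped with nkd1-/-. The 10 most abundant genes alone held 6.07 ± 0.38% of the counts in TL, 6.18 ± 0.28% in axin2-/-, 6.42 ± 0.28% in Tu, 6.66 ± 0.32% in nkd1-/- and 7.03 ± 0.13% in the double mutant. The next 100 genes in the order held between 8.19 and 8.31% on average in all 5 groups. The 13 mitochondrial IDs held between 1.40 and 2.73% of the counts of a library. With them left out of the total, the share of the 100 genes was 22.3% in TL, 23.3% in axin2-/-, 22.9% in Tu, 24.0% in nkd1-/- and 24.6% in the double mutant.

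**Figure D1:**
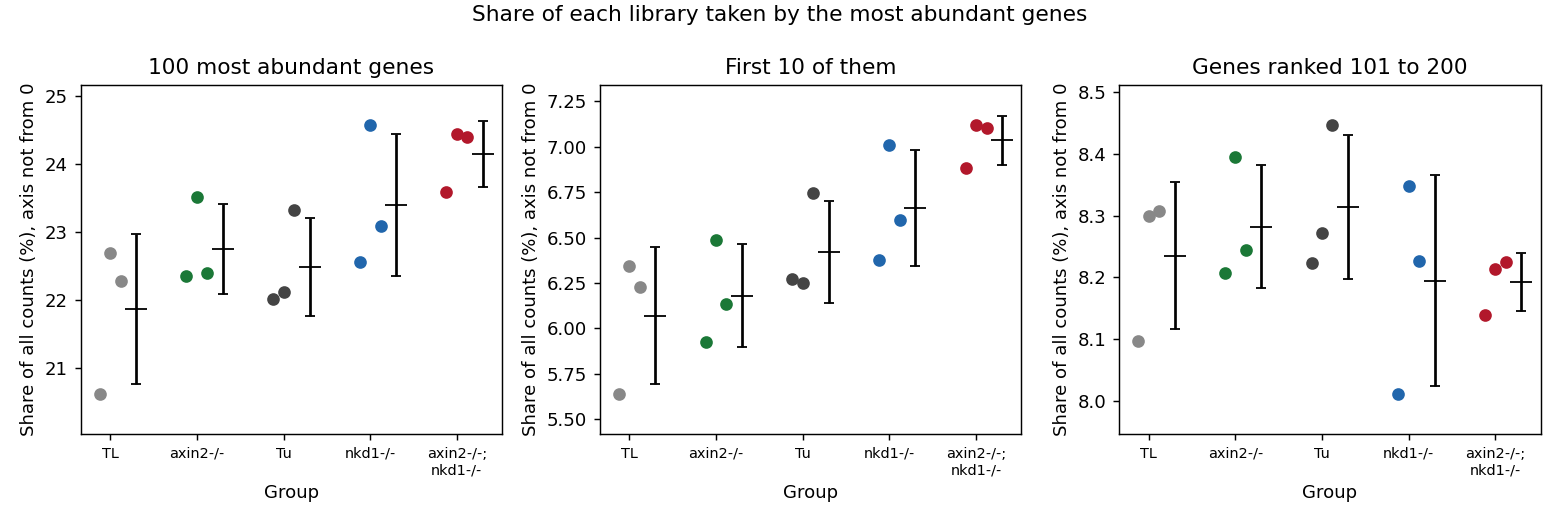
Share of all counts in each library (vertical axes, percent, not starting at 0 and on different scales) held by the 100 most abundant genes, by the first 10 of them and by the next 100 genes, in the 5 groups; points are samples and bars are mean ± SD (n = 3). The double mutant averaged 24.1% for the 100 genes and TL 21.9%, whereas group means for the next 100 genes stayed between 8.19 and 8.31%.

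The membership was nearly the same whichever samples were used. Between 97 and 100 of the genes were chosen again when each group in turn was left out of the mean, and 98 were chosen by the median. In every library 73 of them were among its own first 100, and 99 were among its first 200. Mean abundance ran from 12688 CPM for eef1a1l1 to 1097 CPM for SMARCA4, with a median of 1628 CPM. The edge of the set was not sharp. The last members were tbx16 at 1117 CPM, G3BP1 at 1116, RCC1 at 1108, srsf2a at 1106 and SMARCA4 at 1097 CPM, and the first genes outside were TPT1 at 1097, RAN at 1096, UBB at 1076, SLC7A8 at 1067 and KHDRBS1 at 1061 CPM. The count of a member in a library was between 24365 and 927577, where counting error alone is 0.64% and 0.10%.

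The 10 genes with the highest mean were eef1a1l1 (the translation elongation factor that brings aminoacyl-tRNA to the ribosome), khdrbs1a (an RNA-binding protein of the Sam68 family), hmga1a (an AT-hook chromatin protein), cirbpb (a cold-inducible RNA-binding protein), hnrnpa0l, HSPA8 (the constitutive Hsp70 chaperone), ncl (nucleolin, which acts in ribosome biogenesis), HNRNPAB, akap12b (an anchoring protein for protein kinase A) and marcksl1b (an actin-regulating substrate of protein kinase C). In every library eef1a1l1 was the highest of the 100. Among the 100 genes, 20 were in the list of RNA-binding and splicing proteins, 12 in that of histones and chromatin proteins, 6 in cytoskeleton and keratins, 5 in enveloping layer and yolk syncytial layer markers, 4 in translation factors, 4 in chaperones and protein turnover, 3 in cell cycle and replication, 2 in energy metabolism, 2 in gastrula patterning genes and Wnt targets, and 1 in maternal factors. No cytosolic ribosomal protein gene was among them. The highest of the 99 ribosomal protein genes in the table was RPL12 at rank 190, and the whole list took 1.73 to 2.01% of the counts as group means.

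Replicates of these genes lay close together. The median coefficient of variation within groups, averaged over the 5 groups for each gene, was 6.0%, against 5.69% for the next 100 genes and 20.5% for all 21614 genes that passed the filter on low counts. All 100 genes passed it. The 5 group means of a member were also close. The highest was a median 1.24 times the lowest, against 2.16 times for all genes tested with no group at 0. The ratio was under 1.2 for 42 members and at least 1.5 for 14. It was at least 2 for 1 gene, ENSDARG00000080337. These ratios used CPM, whereas the order of the groups was taken from means of log2 CPM scaled by TMM. By that order the double mutant was highest for 44 of the 100 genes, against 20.3% of all genes tested. TL was lowest for 34, against 19.0%.

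**Figure D2:**
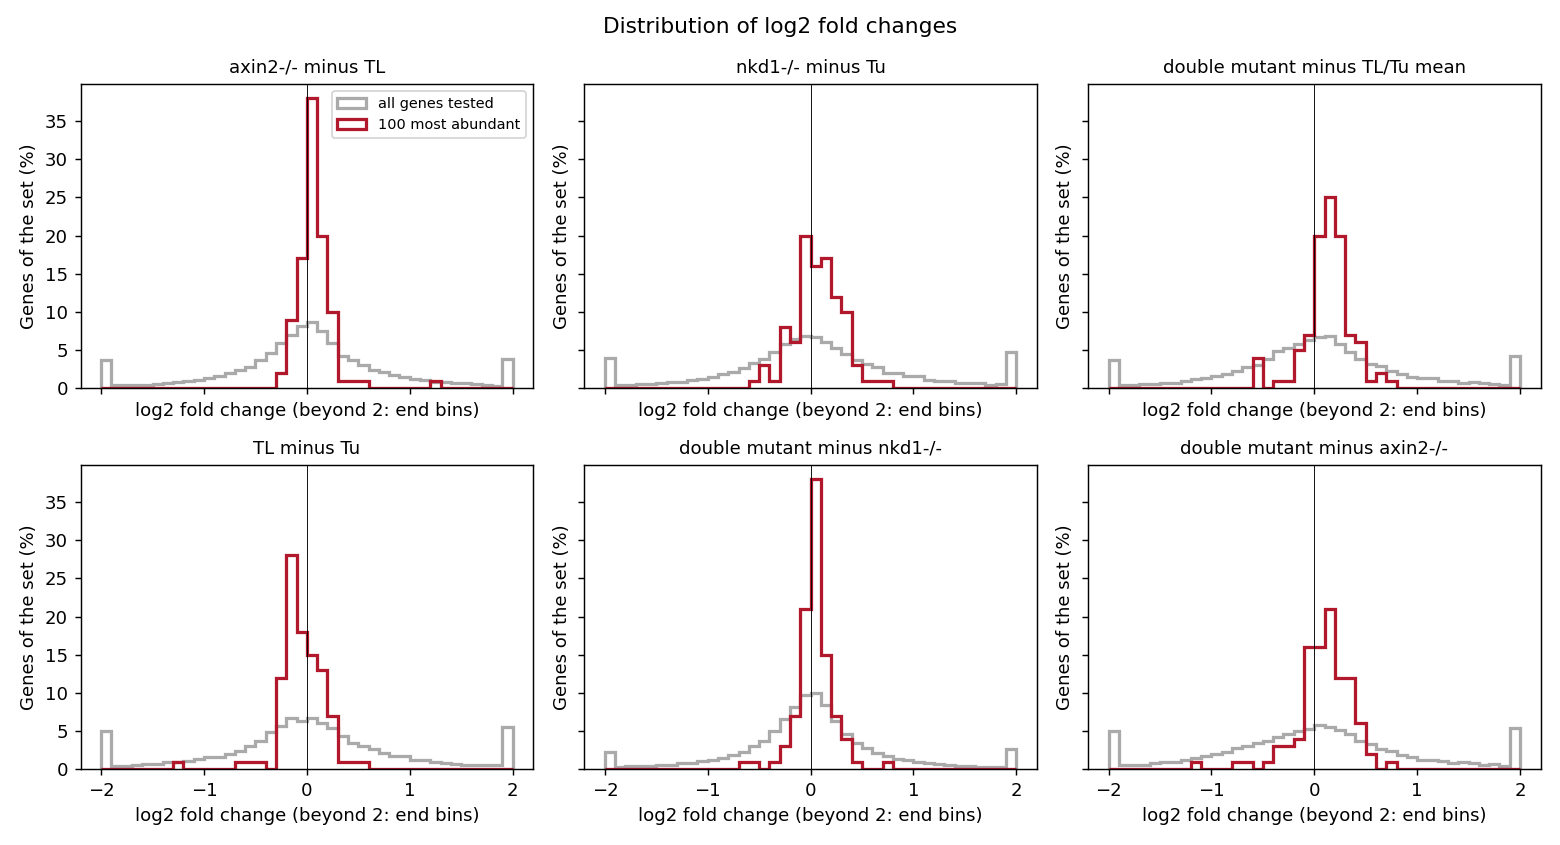
Histograms of log2 fold changes (horizontal axes, values beyond 2 in the end bins) for the 100 most abundant genes (red) and all genes tested (grey) in the 6 comparisons, as percent of the genes of each set (vertical axes). The abundant genes lie in a narrow band around 0, and their median against the mean of both strains was 0.15 in the double mutant, against 0.03 for all genes.

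Differences between groups were tested with edgeR's quasi-likelihood test over all genes, with Benjamini-Hochberg adjustment. A difference was called where the adjusted p was under 0.05. In axin2-/- versus TL, 4 of the 100 genes were called, all higher, whereas 21.2% of all genes tested were called and 10.6% were called higher. In nkd1-/- versus Tu, 25 were called, whereas the background was 29.3%. Of these, 15 were higher (background 14.4%) and 10 lower (background 14.8%). Relative to both strains averaged, 33 were called in the double mutant, whereas the background was 37.4%. Of these, 27 were higher (background 19.7%) and 6 lower (background 17.7%). TL and Tu differed in 8 (background 31.1%), with 3 higher in TL (15.3%) and 5 lower (15.7%). The double mutant differed from nkd1-/- in 7 (background 11.5%), with 6 higher (6.06%) and 1 lower (5.49%). It differed from axin2-/- in 34 (background 38.6%), with 24 higher (19.0%) and 10 lower (19.5%). Any difference among the 5 groups was called in 50 members (background 67.2%). No test compared these shares with the background. Called members whose samples did not overlap between the groups numbered 4, 24, 19, 8, 7 and 34 in the 6 comparisons in the order given, with backgrounds of 20.4, 26.8, 23.4, 29.8, 11.0 and 36.8%.

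The differences were small. The median log2 fold change of the 100 genes was 0.06 for axin2-/- and 0.05 for nkd1-/- relative to their strains, and 0.15 for the double mutant relative to both, where the median over all genes tested was 0.01, 0.00 and 0.03. The called members had a median absolute log2 fold change of 0.47 in axin2-/- versus TL, 0.35 for nkd1-/- and Tu, and 0.37 in the double mutant relative to the strains, where all called genes had 1.15, 1.03 and 0.91. A gene that varies more between samples needs a larger difference to be called. The median biological coefficient of variation in the fit was 0.10 for the members and 0.22 for all genes tested. These fold changes are not reported here for the next 100 genes. An absolute log2 fold change of 1 was passed only by ENSDARG00000080337, in 3 comparisons: axin2-/- with TL, TL with Tu, and axin2-/- with the double mutant. The calls that were kept whenever any 1 sample of the groups compared was left out numbered 2 of 4 in axin2-/- versus TL, 11 of 25 in nkd1-/- versus Tu, 18 of 33 in the double mutant relative to the strains, 5 of 8 between the strains, 3 of 7 relative to nkd1-/- and 13 of 34 relative to axin2-/-. The counts of calls rested in part on single libraries. Without Tu replicate 1, nkd1-/- versus Tu gave 13 calls in place of 25, and calls over all genes fell from 6324 to 4584. Without nkd1-/- replicate 1 that comparison gave 34, with 6132 over all genes. The double mutant against nkd1-/- gave 4 in place of 7 without nkd1-/- replicate 3 or without double mutant replicate 3. Over all genes these fits gave 1558 and 1444 calls in place of 2496. Without nkd1-/- replicate 2 that comparison gave 9, with 2738 over all genes. The double mutant against axin2-/- gave 18 in place of 34 without axin2-/- replicate 3. It gave 22 without axin2-/- replicate 1, double mutant replicate 2 or double mutant replicate 3. Over all genes these fits gave between 6491 and 7362 calls in place of 8340.

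**Figure D3:**
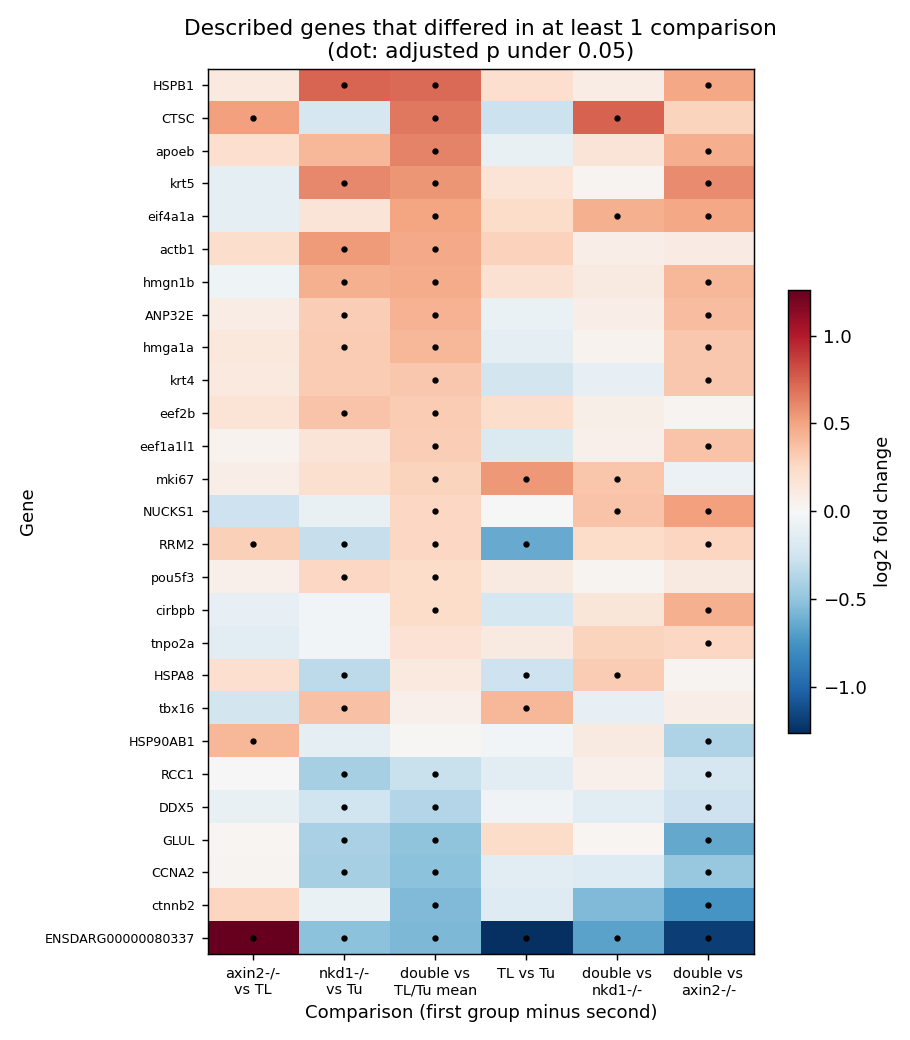
Log2 fold change (colour) of the described abundant genes that were called in at least 1 of the 6 comparisons (rows, genes; columns, comparisons; dots, adjusted p under 0.05). Of the 100 genes 50 were called in none of them, against 29.5% of all genes tested, and ENSDARG00000080337 was called in all 6.

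Among the 4 translation factors, 3 were called higher in the double mutant relative to the strains. Of all genes tested, 37.4% were called there and 19.7% were called higher. The whole list of 87 tested translation factors had 27 calls there (10 higher and 17 lower), with a median log2 fold change of -0.03, against 0.03 for all genes. The RNA helicase eif4a1a (ENSDARG00000092115), which unwinds the 5′ end of mRNAs in the cap-binding complex, was at 1775, 1821 and 1773 CPM in TL, at 1608, 1661 and 1622 CPM in axin2-/-, at 1445, 1419 and 1550 CPM in Tu, and at 1582, 1756 and 1589 CPM in nkd1-/-. In the double mutant it was at 2138, 2303 and 2255 CPM. All 3 double mutant samples were above every other sample. The difference was 0.49 ± 0.08 on the log2 scale against the strains (SE; edgeR adjusted p = 9.41e-05), 0.45 ± 0.09 against nkd1-/- (adjusted p = 0.00293) and 0.49 ± 0.09 against axin2-/- (adjusted p = 0.000456). These calls were kept when any 1 sample was left out. The elongation factor eef2b (ENSDARG00000100371), which moves the ribosome along the mRNA, was at 2624, 2524 and 2492 CPM in Tu and at 3093, 3363 and 3318 CPM in nkd1-/-, with no overlap (log2 fold change 0.36 ± 0.09, edgeR adjusted p = 0.00863). Against the mean of the strains the double mutant was higher in eef2b by 0.32 ± 0.08 (adjusted p = 0.00476, and 0.0539 without double mutant replicate 2). Tu had the lowest group mean of eef2b, 2547 CPM, and the TL samples did not overlap with it, although that difference was not called. The eef2b means of the other groups were 3070 (TL), 3416 (axin2-/-), 3258 (nkd1-/-) and 3415 ± 421 CPM (double mutant). The elongation factor eef1a1l1 (ENSDARG00000020850) was at 11303 ± 683 CPM in TL, 12426 ± 1294 CPM in Tu and 14386 ± 353 CPM in the double mutant, 0.31 ± 0.10 higher than the strains (adjusted p = 0.0243), a call lost without double mutant replicate 2 or 3 (adjusted p = 0.0755 and 0.0673). In nkd1-/- eef1a1l1 was at 13827 ± 1623 CPM, and it was called neither against Tu nor between the double mutant and nkd1-/-. pabpc1a (poly(A)-binding protein) had group means between 1938 and 2135 CPM and was called in no comparison.

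Of the 12 chromatin proteins, hmga1a, ncl, ANP32E, h3f3a, hmgn1b and ptmab were called in at least 1 comparison and the other 6 in none. Of all genes tested, 29.5% were called in none of the 6 comparisons. In nkd1-/- versus Tu 4 of 12 were higher and 0 lower (14.4% of all genes were called higher), in the double mutant relative to the strains 5 and 0 (19.7% called higher), and relative to axin2-/- 6 and 0 (19.0% called higher). All 4 calls in nkd1-/- (hmga1a, ANP32E, hmgn1b and ptmab) were lost without Tu replicate 1 (adjusted p of 0.0951 to 0.156 by edgeR's quasi-likelihood test) and without nkd1-/- replicate 2 (0.12 to 0.206). Relative to axin2-/-, the calls of ncl and ANP32E were kept when any 1 sample was left out, and those of hmga1a, h3f3a, hmgn1b and ptmab were lost without axin2-/- replicate 1 (0.0582 to 0.104). Relative to the strains, hmga1a, ANP32E and hmgn1b were kept, ptmab was lost without double mutant replicate 3 (0.0555), and h3f3a was lost without any 1 of 7 samples (0.0526 to 0.0991). The whole list of 66 gave 12 higher and 6 lower, 20 higher and 5 lower, and 25 higher and 7 lower. hmga1a (ENSDARG00000028335) was at 6293, 7240 and 6813 CPM in TL, at 6859, 7039 and 7347 CPM in Tu, and at 8957, 9143 and 9104 CPM in the double mutant, with no overlap. The difference was 0.42 ± 0.09 (edgeR adjusted p = 0.0011). In nkd1-/- hmga1a was at 8226, 9508 and 8771 CPM, 0.32 ± 0.10 above Tu (adjusted p = 0.0231, but 0.0951 without Tu replicate 1 and 0.12 without nkd1-/- replicate 2). ANP32E (ENSDARG00000054804), a chaperone of the histone variant H2A.Z in human cells, was at 2811 ± 318 CPM in TL, 2885 ± 118 CPM in Tu and 3769 ± 142 CPM in the double mutant (0.44 ± 0.09, adjusted p = 0.00176). hmgn1b (ENSDARG00000103919), a nucleosome-binding protein, was at 1570 ± 177, 1327 ± 201 and 1950 ± 72.3 CPM in the same groups (0.46 ± 0.12, adjusted p = 0.00677). Its paralogue hmgn1a was called in no comparison, with group means from 2476 to 2870 CPM. The use of strand and the treatment of reads shared by copies are not given in the sources used here, so values of paired copies such as hmgn1a and hmgn1b, actb1 and actb2, cirbpa and cirbpb, or h3f3a and h3f3d are uncertain.

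Most of the 20 RNA-binding and splicing proteins were not called. There were 0 calls in axin2-/- versus TL, 1 in nkd1-/- versus Tu and 3 in the double mutant relative to the strains. The whole list of 137 had 11, 40 and 40, and 21.2, 29.3 and 37.4% of all genes tested were called. Relative to axin2-/-, the double mutant was called higher in cirbpb, HNRNPA1L2, sfpq and HNRNPM and lower in DDX5 and ddx3xb. Of all genes tested, 38.6% were called in that comparison. Of the 3 calls relative to the strains, those of cirbpb and cirbpa were lost when some single samples were left out. The DEAD-box RNA helicase DDX5 (ENSDARG00000038068) was at 3908, 4133 and 4198 CPM in TL, at 4295, 4308 and 3625 CPM in Tu and at 3213, 2993 and 3044 CPM in the double mutant. All double mutant samples were below all strain samples, and DDX5 fell by 0.37 on the log2 scale (SE 0.07, edgeR adjusted p = 0.000328). In nkd1-/- DDX5 was at 3421 ± 226 CPM, below Tu (-0.25 ± 0.07, adjusted p = 0.0168). That call was lost without Tu replicate 1 or 2 (adjusted p = 0.0608 and 0.0903). The double mutant was not called different from nkd1-/- in DDX5 (-0.14 ± 0.07, adjusted p = 0.272). khdrbs1a, the second most abundant gene, had group means from 7847 to 9088 CPM, and hnrnpa0l from 5980 to 6525 CPM. Neither was called in any comparison. cirbpb was at 5891 ± 544 CPM in axin2-/- and 7860 ± 342 CPM in the double mutant, 0.45 ± 0.10 higher (adjusted p = 0.00224).

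Of the 4 chaperone genes, HSPB1, HSP90AB1 and HSPA8 were called in at least 1 comparison, where 29.5% of all genes tested were called in none. HSPB1 (ENSDARG00000041065), a small heat shock protein, was at 1410, 1505 and 1764 CPM in Tu and at 2445, 2876 and 2463 CPM in nkd1-/-. The groups did not overlap, and the log2 difference of 0.74 ± 0.14 (edgeR adjusted p = 0.00091) was the highest of any member called there. In the double mutant it was at 2871, 2523 and 2857 CPM and in TL at 1519, 2134 and 1962 CPM, and the double mutant was 0.72 ± 0.12 above the strains (adjusted p = 0.000184). In axin2-/- HSPB1 was at 1978, 2115 and 1942 CPM, within the range of TL. HSP90AB1 (ENSDARG00000029150), the constitutive Hsp90, was instead at 3903, 3962 and 3726 CPM in axin2-/- and at 2894, 2926 and 2974 CPM in TL (0.42 ± 0.10, adjusted p = 0.0043). The double mutant had 2881 ± 301 CPM of HSP90AB1, 0.39 below axin2-/- on the log2 scale (log2 fold change -0.39 ± 0.10, adjusted p = 0.00395). HSPA8 (ENSDARG00000068992) was at 5666, 5217 and 5840 CPM in Tu and at 4757, 4421 and 4177 CPM in nkd1-/-, without overlap, and fell by 0.33 (SE 0.08, adjusted p = 0.00502). It was also lower in TL, at 4809 ± 106 CPM, than in Tu (-0.26 ± 0.08, adjusted p = 0.0181), a call lost without TL replicate 1 or 2 or Tu replicate 3 (adjusted p = 0.0531, 0.0635 and 0.0802). The double mutant did not share the low value of nkd1-/-. HSPA8 was at 5511 ± 122 CPM there, 0.32 ± 0.08 above nkd1-/- without overlap (adjusted p = 0.0136), and the Tu mean was 5575 CPM. ubc had group means from 2065 to 2316 CPM and was called nowhere. The list of 221 chaperone and protein turnover genes had 38 calls in axin2-/- versus TL (background 21.2%) and 51 in nkd1-/- versus Tu (29.3%). In the double mutant relative to the strains it had 69 (37.4%).

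**Figure D4:**
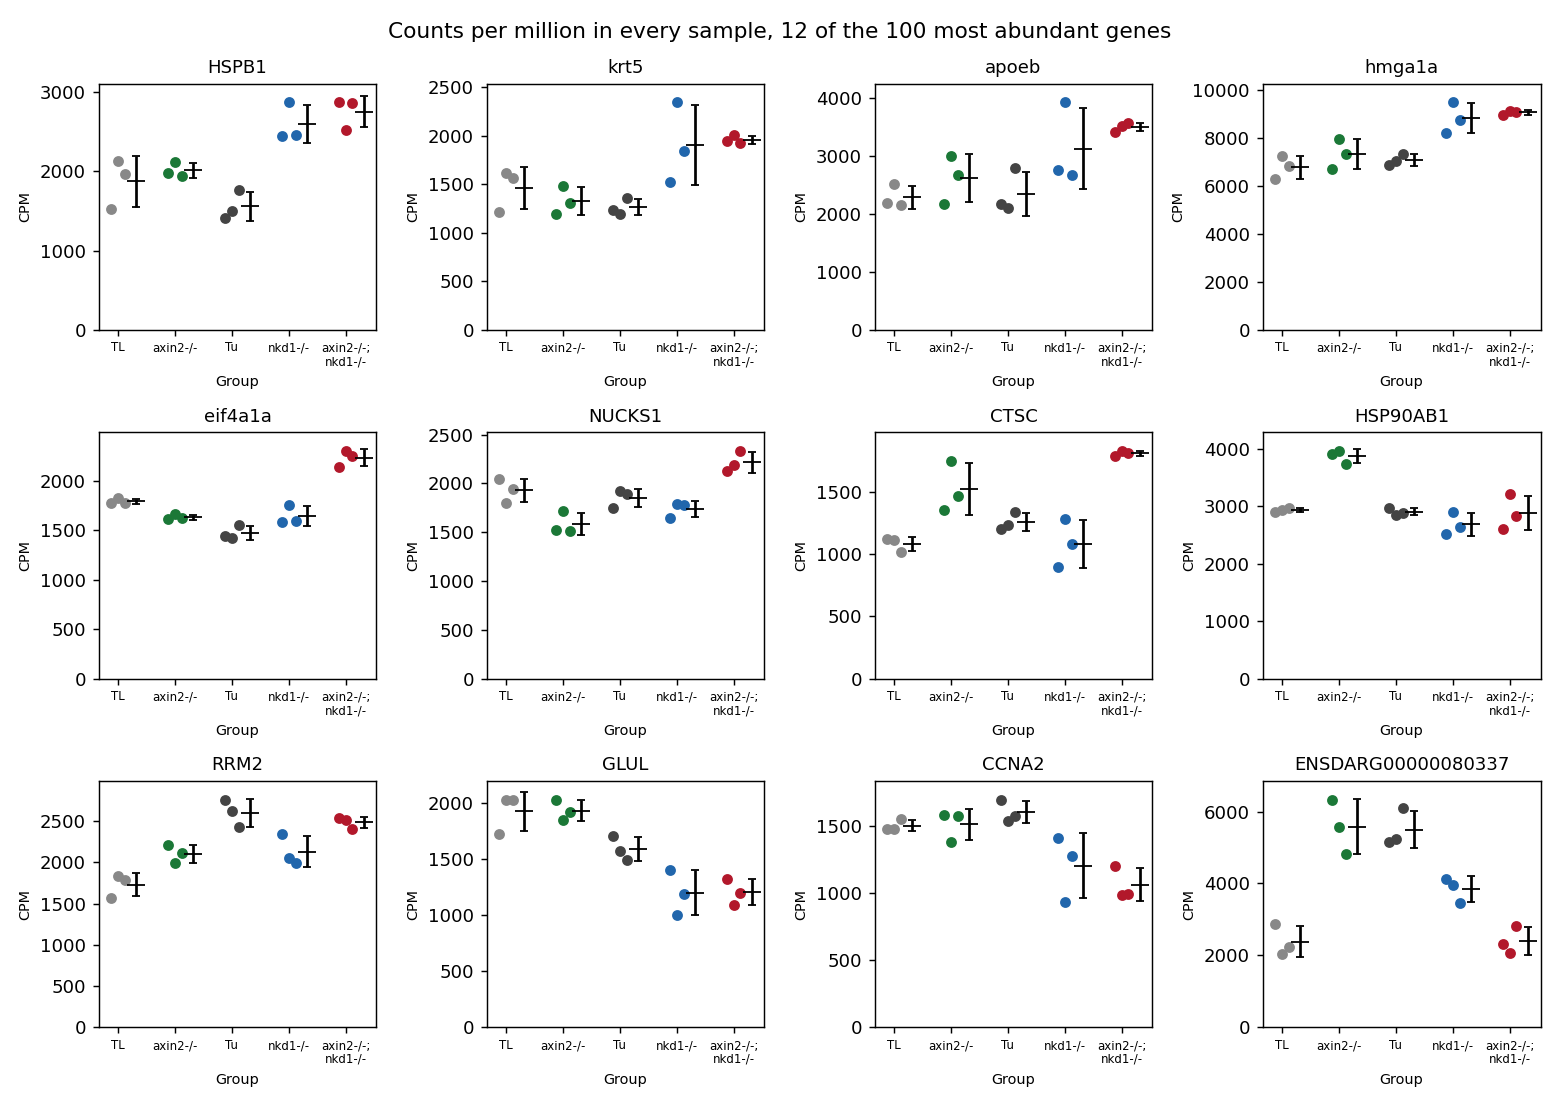
CPM of selected abundant genes in each sample (points; vertical axes start at 0 and differ between genes) with mean ± SD for the 5 groups (n = 3). For eif4a1a the 3 double mutant samples lie above all 12 other samples, and for HSP90AB1 the 3 axin2-/- samples do.

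The 5 markers of the enveloping and yolk syncytial layers together took 0.957 ± 0.085% of counts in TL, 1.01 ± 0.11% in axin2-/-, 1.03 ± 0.083% in Tu, 1.3 ± 0.21% in nkd1-/- and 1.28 ± 0.037% in the double mutant. The whole list of 17 tested markers had 12 calls in the double mutant relative to the strains (9 higher and 3 lower), with a median log2 fold change of 0.38, against 0.03 for all genes. In nkd1-/- versus Tu it had 7 (5 higher and 2 lower). Of all genes tested, 37.4 and 29.3% were called in these comparisons, in that order. The keratin krt5 (ENSDARG00000058371) was at 1216, 1613 and 1562 CPM in TL, at 1238, 1194 and 1353 CPM in Tu and at 1948, 2002 and 1924 CPM in the double mutant. All 3 double mutant samples were above the 6 strain samples (0.56 ± 0.14, edgeR adjusted p = 0.00395). In nkd1-/- krt5 was at 1525, 2347 and 1837 CPM, 0.60 ± 0.16 above Tu (adjusted p = 0.00922, and 0.0646 without nkd1-/- replicate 2). apoeb (ENSDARG00000040295), an apolipoprotein E, was at 2185, 2520 and 2161 CPM in TL, at 2164, 2098 and 2788 CPM in Tu and at 3422, 3517 and 3565 CPM in the double mutant (0.62 ± 0.14, adjusted p = 0.00266). krt4 was 0.34 ± 0.11 higher in the double mutant than in the strains (adjusted p = 0.0219), a call lost without double mutant replicate 2 or 3 (adjusted p = 0.0915 and 0.058). krt8 and krt18a.1 were called in none of the 6 comparisons, at 2548 ± 152 and 2048 ± 21.2 CPM in the double mutant. In nkd1-/- they were at 2759 ± 367 and 2250 ± 293 CPM. krt4 was at 2969 ± 409 CPM in nkd1-/- and 2770 ± 150 CPM in the double mutant. Its difference between nkd1-/- and Tu was not called (0.32 ± 0.13, edgeR adjusted p = 0.0689). In RNA of whole embryos, more cells of a layer and more RNA per cell cannot be told apart.

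The cytoskeleton list added the β-actin genes. actb1 (ENSDARG00000037746) was at 1580, 1364 and 1492 CPM in Tu and at 2225, 2109 and 2110 CPM in nkd1-/-, 0.54 ± 0.14 higher (edgeR adjusted p = 0.00753). In TL it ranged from 1371 to 2265 CPM. actb2, at 3924 ± 181 CPM in Tu and 3889 ± 154 CPM in nkd1-/-, was called nowhere. Of the 98 tested genes of the list, 28 were called in nkd1-/- versus Tu (19 higher and 9 lower). In the double mutant relative to the strains 43 were called (31 higher and 12 lower). Among all genes tested, 29.3% were called in the former (14.4% higher and 14.8% lower) and 37.4% in the latter (19.7% and 17.7%).

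Of the 3 cell cycle genes, CCNA2 and RRM2 were called in nkd1-/- versus Tu, both lower. Both were also called in the double mutant relative to the mean of the strains, CCNA2 lower and RRM2 higher. RRM2 was at 2484 ± 71.4 CPM in the double mutant, above the TL mean of 1731 CPM but below the Tu mean of 2603 CPM. CCNA2 (ENSDARG00000011094), cyclin A2 of S phase and mitosis, was at 1698, 1538 and 1577 CPM in Tu and at 1409, 934 and 1274 CPM in nkd1-/-, with no overlap, and fell by 0.42 (SE 0.10, edgeR adjusted p = 0.00572). In the double mutant it was at 1205, 988 and 995 CPM and in TL at 1480, 1482 and 1549 CPM, and the double mutant was below the strains by a log2 fold change of -0.51 ± 0.09 (adjusted p = 0.000361). RRM2 (ENSDARG00000020711), a subunit of ribonucleotide reductase, differed most between the strains, at 1571, 1837 and 1784 CPM in TL and 2762, 2624 and 2424 CPM in Tu (-0.63 ± 0.08, adjusted p = 2.28e-05). It was at 2105 ± 109 CPM in axin2-/-, 0.30 ± 0.08 above TL (adjusted p = 0.0149), and at 2129 ± 190 CPM in nkd1-/-, below Tu (-0.29 ± 0.08, adjusted p = 0.0147). Both calls of RRM2 were lost without single libraries, the first without TL replicate 1 or axin2-/- replicate 1 (adjusted p = 0.0827 and 0.0579) and the second without Tu replicate 1 or nkd1-/- replicate 3 (adjusted p = 0.0561 and 0.0836). CCND1, cyclin D1, was at 1391 ± 63.0 CPM in TL and 1675 ± 149 CPM in axin2-/- (0.29 ± 0.10, adjusted p = 0.0537) and was called in no comparison. mki67 (ENSDARG00000091150), the proliferation antigen Ki-67, was at 2003 ± 82.8 CPM in TL and 1337 ± 279 CPM in Tu (0.54 ± 0.10, adjusted p = 0.000782). The whole list of 60 cell cycle genes had 20 calls in axin2-/- versus TL (background 21.2%) and 24 in nkd1-/- versus Tu (29.3%). In the double mutant relative to the strains it had 33 (37.4%), with 21 higher (19.7%) and 12 lower (17.7%).

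β-catenin, the effector that Axin2 helps to destroy, is encoded by both CTNNB1 (ENSDARG00000014571) and ctnnb2 (ENSDARG00000023472), and both were among the 100 genes. CTNNB1 had means of 1888 ± 47.8 CPM in TL, 1900 ± 94.2 in axin2-/-, 1750 ± 46.0 in Tu, 2005 ± 211 in nkd1-/- and 2036 ± 59.6 CPM in the double mutant, and was called in no comparison. ctnnb2 was at 1443 ± 49.0 CPM in TL, 1715 ± 251 in axin2-/-, 1565 ± 24.6 in Tu and 1472 ± 51.3 CPM in nkd1-/-. In the double mutant it was at 491, 1471 and 1032 CPM, and only the second of these lay within the range of the strains and nkd1-/-. Its difference from axin2-/- (-0.75 ± 0.24, edgeR adjusted p = 0.0194) was lost without axin2-/- replicate 1 (adjusted p = 0.0698). Its difference from the strains (-0.56 ± 0.21, adjusted p = 0.0443) was lost without double mutant replicate 1 (adjusted p = 0.153), without double mutant replicate 3 (0.0992) and when any of the 6 strain samples was left out (0.0592 to 0.0719). tbx16 (ENSDARG00000007329), a T-box factor of mesoderm formation, was at 953, 1033 and 796 CPM in Tu and 1331, 1111 and 1157 CPM in nkd1-/- (0.37 ± 0.09, adjusted p = 0.00399), and at 1306, 1267 and 1266 CPM in TL, 0.42 ± 0.09 above Tu (adjusted p = 0.00139). Of the 21 tested patterning genes and Wnt targets, 8 were called in axin2-/- versus TL (5 higher and 3 lower) and 10 in nkd1-/- versus Tu (8 and 2). In the double mutant relative to the strains 12 were called (9 and 3). The backgrounds of these comparisons were 21.2, 29.3 and 37.4%.

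Among maternal activators of the zygotic genome, pou5f3 (ENSDARG00000044774), a homologue of mammalian Oct4, was at 2060, 2088 and 1850 CPM in Tu and 2533, 2185 and 2482 CPM in nkd1-/- (0.26 ± 0.07, edgeR adjusted p = 0.0137). Tu had the lowest group mean. pou5f3 was at 2230 ± 139 CPM in TL, above Tu without overlap, although that difference was not called. It was at 2297 ± 103 CPM in axin2-/- and 2426 ± 103 CPM in the double mutant. The other activators are not among the 100 genes. nanog ranged from 319 to 523 CPM in Tu and from 113 to 285 CPM in nkd1-/- (-1.16 ± 0.21, adjusted p = 0.00053), and sox19b was at 15.7 ± 3.06 and 34.7 ± 5.19 CPM (1.16 ± 0.16, adjusted p = 3.71e-05). The list of maternal factors holds these activators and also maternal oocyte transcripts that are not activators. Of its 13 genes, 6 were called in nkd1-/- versus Tu (5 higher and 1 lower), where the background was 29.3%. Of the energy metabolism genes, SLC25A5, the mitochondrial ADP/ATP carrier, had group means from 1638 to 1813 CPM and was called nowhere. Of the 156 tested genes of this list, 48 were called in the double mutant relative to the strains (27 higher and 21 lower). The background was 37.4% (19.7% higher and 17.7% lower).

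Among the 45 members on no list, 2 were called in axin2-/- versus TL, 11 in nkd1-/- versus Tu and 13 in the double mutant relative to the strains, where 21.2, 29.3 and 37.4% of all genes were called. ENSDARG00000080337 has no gene name in the table used, and whether it is a nuclear gene was not determined. It was at 2873, 2041 and 2247 CPM in TL and at 5166, 5232 and 6090 CPM in Tu (-1.26 ± 0.14, edgeR adjusted p = 4.35e-06). It was at 6334, 5584 and 4818 CPM in axin2-/-, 1.25 ± 0.14 above TL (adjusted p = 1.02e-05), at 4138, 3959 and 3457 CPM in nkd1-/- and at 2309, 2065 and 2814 CPM in the double mutant. Its difference between nkd1-/- and Tu (-0.52 ± 0.14, adjusted p = 0.011) was lost without Tu replicate 3 (0.0543) or nkd1-/- replicate 3 (0.057). The axin2-/- samples overlapped with Tu and the double mutant samples with TL. GLUL (ENSDARG00000100003), glutamine synthetase, was at 1701, 1567 and 1492 CPM in Tu and 1402, 1004 and 1189 CPM in nkd1-/-, and fell by 0.41 (SE 0.10, adjusted p = 0.00529). In the double mutant it was at 1324, 1092 and 1200 CPM against 1922 ± 176 CPM in TL (-0.50 ± 0.09 against both strains, adjusted p = 0.000317). CTSC (ENSDARG00000101334), the lysosomal protease cathepsin C, was at 1787, 1833 and 1814 CPM in the double mutant and at 896, 1280 and 1079 CPM in nkd1-/-, 0.74 ± 0.14 higher (adjusted p = 0.00162). It was at 1356, 1754 and 1465 CPM in axin2-/- and 1119, 1111 and 1017 CPM in TL (0.52 ± 0.14, adjusted p = 0.011, and 0.0696 without axin2-/- replicate 2). RCC1 (ENSDARG00000037158), the exchange factor of the GTPase Ran, was at 1263 ± 64.6 CPM in Tu and 949 ± 118 CPM in nkd1-/- (-0.42 ± 0.08, adjusted p = 0.00113).

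Only RRM2 and ENSDARG00000080337 were called in both single mutants against their own strains, and each differed in opposite directions there. For both genes the call in nkd1-/- was lost without single samples. Of all genes tested, 21.2% were called in axin2-/- versus TL and 29.3% in nkd1-/- versus Tu. The share of all genes called in both was not determined, so this overlap has no background. The double mutant and nkd1-/- share no sample with axin2-/- and TL, and the effect of axin2 loss could be compared between the nkd1-/- line and TL. That difference was called in 4 members, ENSDARG00000080337, NUCKS1, eif4a1a and tnpo2a (background 19.2%).

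Among the 5 genes that differed least, by the range of scaled log2 group means, were pabpc1a, BZW1 and PPM1G. PPM1G, a protein phosphatase, had group means of 1225, 1255, 1188, 1139 and 1190 CPM in TL, axin2-/-, Tu, nkd1-/- and the double mutant, and BZW1 had 1388, 1441, 1454, 1423 and 1412 CPM. None of these 3 was called in any of the 6 comparisons.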

How the data were processed

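Counts per Ensembl gene ID were deposited by the authors as whole numbers, not normalized, for 15 samples. The submitters' processing notes name GRCz11 and edgeR 3.30.3; the aligner, counting tool, annotation and use of strand are not given in the sources used here. Names were found for 29201 of 32520 IDs. No coordinates or sequences were used here. All 15 columns were matched by title.

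CPM used the column total. Genes were filtered with filterByExpr (minimum count 10, minimum total 15), scaled by TMM and tested with edgeR 4.0.16 (R 4.3.3; glmQLFit and glmQLFTest, group as the only factor, all 15 samples, 10 residual degrees of freedom, Benjamini-Hochberg adjustment over 21614 genes, threshold 0.05). DESeq2 1.42.0 was an alternative, with other scalings, no filter, a replicate block, only the groups compared, a fold threshold and leaving out each sample. The pipeline was tested on simulated data. Replicates differed by a chi-square of 13.2 to 73.7 per degree of freedom, so no column was a copy of another. Repeated preparations of 1 RNA pool could not be told apart from separate pools this way. Precision per gene is limited by 3 samples a group, not by counting.

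Named genes were the 10 most abundant; the 5 largest rises and 5 largest falls per comparison among called members without overlap; the 4 most abundant of each list; the 5 least variable; and the 5 genes on either side of the edge of the set. Further genes were named after their values were seen. The members and lists were chosen with earlier results of these data known. Some genes that this rule selects are not reported here.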

Additional observations from a re-analysis of the deposited data

Results flagged for a closer look

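For 4 of the abundant genes, the effect of axin2 loss differed between the nkd1-/- line and TL, as an interaction in edgeR's quasi-likelihood test. That effect was the double mutant against nkd1-/- in the nkd1-/- line, and axin2-/- against TL in TL. The same difference was called in 19.2% of all genes tested, a higher share than among the abundant genes. For ENSDARG00000080337 the difference of the log2 effects was -1.93 ± 0.20 (SE; edgeR adjusted p = 6.16e-06), from 1.25 ± 0.14 in TL to -0.67 ± 0.14 in the nkd1-/- line. For NUCKS1, a nuclear DNA-binding protein, it was 0.62 ± 0.13 (adjusted p = 0.00315), from -0.26 ± 0.09, which was not called, to 0.36 ± 0.09, a call lost without nkd1-/- replicate 1 or 3 or double mutant replicate 3 (adjusted p = 0.0687, 0.0502 and 0.0819). For eif4a1a it was 0.56 ± 0.13 (adjusted p = 0.00501), from -0.11 ± 0.09, not called, to 0.45 ± 0.09. For tnpo2a it was 0.41 ± 0.13 (adjusted p = 0.0317), from -0.14 ± 0.09 to 0.28 ± 0.09, neither of which was called. The strain backgrounds of these lines differ, and the genotype effect and the background cannot be told apart.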

How the results depend on the processing

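No called difference of a member changed sign under any alternative. The share of counts changed by less than 1 SD in each group when mitochondrial IDs left the total, when the genes were chosen by median or without that group, or without ENSDARG00000080337 (an alternative added after seeing the data). Leaving out each sample in turn, it was 21.5 to 22.5% in TL, 22.4 to 23.0% in axin2-/-, 22.1 to 22.7% in Tu, 22.8 to 23.8% in nkd1-/- and 24.0 to 24.4% in the double mutant. The calls then ranged from 3 to 6 for axin2-/- (versus TL), 13 to 34 for nkd1-/- (versus Tu), 25 to 42 for the double mutant relative to both strains, 4 to 9 relative to nkd1-/-, 18 to 33 relative to axin2-/-, 6 to 11 between the strains and 45 to 53 among the 5 groups. A fit of only the groups compared gave 16 calls for nkd1-/- in place of 25, and the cause was not tested. Where the log2 fold change also had to reach 1 in size, the counts were 1 for axin2-/-, 0 for nkd1-/-, 1 between the strains, and for the double mutant 0 relative to both strains, 0 relative to nkd1-/- and 1 relative to axin2-/-. The replicate block gave 15 calls between the strains in place of 8, the cause of which was not tested, and moved no other count by over 1.5 times. The numbers in the titles do not state a pairing. Same-numbered samples of different groups had mean correlations of -0.028 to 0.075 in their deviations from the group means, over all genes tested. A pairing that touches only some genes could not be seen this way. DESeq2 and its size factors moved no count by over 1.5 times. Of 85 pairs of a named gene and a comparison in which it was called, leaving out a sample kept the call in 490 fits and lost it in 98, and the other alternatives kept it in 490 and lost it in 20. The precision is limited by 3 collections of 1 family per group.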

Other observations

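The members with the widest spread among replicates were malat1, ctnnb2 and ENSDARG00000080337, with coefficients of variation within groups, averaged over the 5 groups, of 16.2, 14.5 and 13.2%, against 6.0% for the median member. malat1, a long non-coding RNA retained in the nucleus in mammalian cells, was at 911, 1203 and 1318 CPM in TL, at 1073, 1410 and 1487 CPM in the double mutant and at 1135, 1125 and 1123 CPM in nkd1-/-, and was called in no comparison.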
